A study of Homo sapiens with 12 samples.

Results

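The human mitochondrial genome accounted for 37 of the 60715 genes in the deposited expression table, taken as every gene placed on chrM. They comprised 13 protein genes, 2 ribosomal RNA (rRNA) genes and 22 transfer RNA (tRNA) genes. The table places 28 of them on the plus strand, the sense of the transcript read from the heavy strand, and 9 on the minus strand, which are MT-ND6 and 8 tRNA genes. Copies of mitochondrial genes in nuclear chromosomes, 408 by name, were not counted among them.

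RNA of 4 cell lines from human lung adenocarcinoma was sequenced in 3 states per line. Attached cells in standard culture, with no treatment, were the controls. Detached cells had been trypsinised, moved to ultra-low attachment plates and collected after 1 day or 7 days. All cultures had the same medium with fetal bovine serum and antibiotics. Each line and state had 1 library, 12 in all. The 4 lines therefore stood in as replicates, a difference within a line has no test, and loss of attachment cannot be told apart from trypsin and the new plate. Values of single libraries below always start with NCI-H2009, go on with LC-2/ad and then NCI-H2228, and end with HCC4006.

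Both strands of mitochondrial DNA are transcribed into long precursors, from which the tRNAs are cut out and the rRNAs and mRNAs lying between them are released. Short poly(A) tails are then added to most of the rRNAs and mRNAs. The mRNAs encode core subunits of respiratory complexes I, III and IV and of the ATP synthase. The mitochondrial ribosome, which is built around the rRNAs, translates these mRNAs. All other subunits, and the proteins that copy, transcribe, process and translate this genome, come from nuclear genes.

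The genes abut or overlap, which bears on how reads are assigned to them. The first stretch below, on GRCh38 at chrM:1562-1710 on the plus strand, is shown because it holds the boundary of the rRNAs. It has the end of MT-RNR1, the whole of the tRNA gene MT-TV in capitals and the start of MT-RNR2, with no base between the genes. The others, at chrM:8507-8592 and chrM:10740-10786 on the plus strand, show the reading frames that share bases, with the shared bases in capitals: 46 in MT-ATP8 and MT-ATP6, and 7 in MT-ND4L and MT-ND4. The letters come from the GENCODE 29 transcripts, in which all 37 genes have the deposited length.
MT-RNR1 to MT-RNR2: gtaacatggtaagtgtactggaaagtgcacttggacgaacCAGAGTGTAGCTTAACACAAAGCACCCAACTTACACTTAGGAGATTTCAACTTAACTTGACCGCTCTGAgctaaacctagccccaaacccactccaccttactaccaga
MT-ATP8 and MT-ATP6: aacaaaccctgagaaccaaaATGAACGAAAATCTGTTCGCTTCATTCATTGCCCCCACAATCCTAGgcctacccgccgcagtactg
MT-ND4L and MT-ND4: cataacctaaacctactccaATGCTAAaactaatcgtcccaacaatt

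Estimated counts added up to 31134420 to 41882024 per library. Of 10 epithelial and lung adenocarcinoma markers, the summed level lay between 3759 and 19836 TPM in every library. KRT7, KRT8, KRT18, KRT19 and EPCAM made up most of it. Of the lung markers, NKX2-1 had 26.5 to 107 TPM, but SFTPB was at 0.32 TPM or less in NCI-H2009. NAPSA ran from 1.90 TPM in attached LC-2/ad to 705 TPM in HCC4006 at day 7. The 5 leukocyte markers summed to 3.54 to 38.3 TPM in attached cells, 32.1 to 87.1 at day 1 and 18.4 to 119 at day 7, higher at day 1 than attached in 4 of 4 lines. CD14 and CD68 made up most of these sums, while PTPRC and CD3E stayed at 0.834 and 0.14 TPM or less. Their part in the day 1 results below was not tested. Markers of fibroblasts summed to 4.38 to 347 TPM, the highest in attached NCI-H2228. COL1A1 made up nearly all of that highest sum, at 347.2 TPM, while COL1A2, PDGFRB, DCN and LUM were at 0.085 TPM or less there. The NCI-H2009 library of day 1 stood apart in the nuclear-retained RNA MALAT1, at 91.8 TPM. MALAT1 and NEAT1 summed to 93.2 TPM there and to 927 to 2260.2 TPM in the other 11 libraries. NEAT1 added little and did not set this library apart, at 1.385 TPM there and 0.812 TPM in LC-2/ad at day 1. The day 1 medians of the mitochondrial genes and of the nuclear lists are therefore given with and without the NCI-H2009 library.

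The mitochondrial genome took a larger share of the measured RNA after 1 day of detachment than in attached culture in each of the 4 lines. Mitochondrial genes took 1.03%, 1.56%, 0.526% and 1.49% of all TPM (a transcript level scaled by length and library total) in attached cells, with a mean of 1.15% ± 0.478 (SD, n = 4). At day 1 they took 1.28%, 3.39%, 1.76% and 1.94%, with a mean of 2.09% ± 0.909. The share was thus 1.24, 2.18, 3.35 and 1.30 times the attached share of the same line, although the ranges of the states overlapped because the lines differed from each other. At day 7 the shares were 0.968%, 2.02%, 1.41% and 2.68%, with a mean of 1.77% ± 0.746. Only HCC4006 was then above its own day 1, at 1.38 times, while the other lines stood at 0.755, 0.596 and 0.801 times. NCI-H2009 at day 7 was slightly under its attached share, at 0.937 times. A sum over the members has no test here. In a share of bulk RNA, more cells with much of this RNA, more of it in each cell and less of the other RNA cannot be told apart. The share of the estimated counts had the same order of states in every line but was lower, with means of 0.660%, 1.31% and 1.08%.

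**Figure D1:**
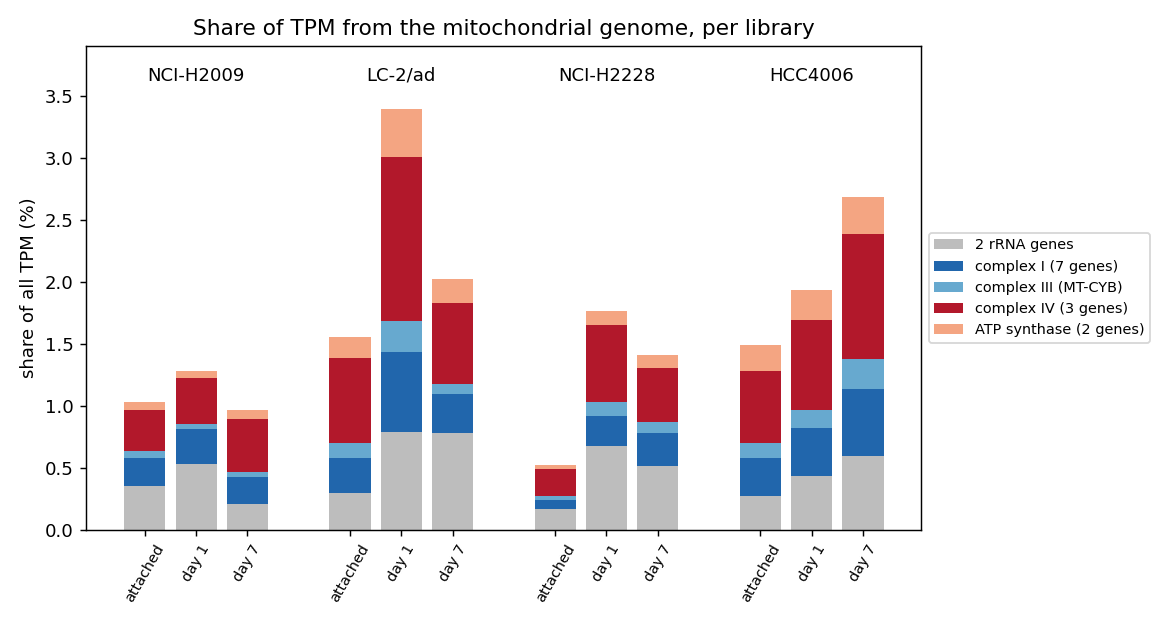
Share of all TPM (%, axis from 0) that came from the mitochondrial genome in each of the 12 libraries, stacked by rRNA genes, complex I, complex III, complex IV and ATP synthase genes. Each bar is 1 library; the attached NCI-H2228 library is the lowest at 0.526% and LC-2/ad at day 1 the highest at 3.39%.

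Within each line most rRNAs and mRNAs were higher at day 1, and the lines differed in how far. The median log2 difference over the 15 rRNA and protein genes between day 1 and attached was 0.57, 1.05, 1.83 and 0.41, on the scale of CPM (counts scaled to the library total). The median over all 17395 genes tested was between 0 and 0.038 in each line. At day 7 against attached it was -0.36, 0.09, 1.56 and 0.93, so the order of the lines was no longer that of day 1. NCI-H2228 had the lowest level of all 15 genes among the attached libraries, and its attached library enters both that level and its differences. Against day 1, the day 7 median was -0.77, -1.06, -0.34 and 0.50, and HCC4006 was higher in 15 of 15 genes.

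Tested over the 4 lines, no mitochondrial gene passed at day 1 in edgeR or limma, but some did in DESeq2. Of the 37 genes, 15 passed the filter on low counts, which are the 13 protein and 2 rRNA genes, and 0 of the 22 tRNA genes did. The lowest estimated count of any of the 15 in any library was 85.0, so none of them was tested only through the state in which it was high. In edgeR's quasi-likelihood test, 0 of 15 had an adjusted p under 0.05 at day 1, where 0.489% of all genes tested did. At an unadjusted p under 0.05, 10 of 15 were called, all of them higher, against 19.6% of all genes in both directions. DESeq2 called 6 of 15, namely MT-RNR2, MT-ND2, MT-CO2, MT-ND4L, MT-ND5 and MT-ND6, against 11% of the genes it gave an adjusted p. The limma test on log2(TPM + 1) called 0 of 15, against 1.29%. The log2 change of the 15 genes had a median of 0.86 and ran from 0.57 in MT-CO1 to 1.48 in MT-RNR2, beside a median of 0.0075 over all genes tested. Of the 15, 13 were higher in 4 of 4 lines, which held for 17.1% of all genes. The exceptions were MT-ND1 in HCC4006 and MT-ATP8 in NCI-H2009. In TPM, which is scaled otherwise, 9 of 15 were higher in all 4 lines, since 5 of the 15 had a lower TPM in NCI-H2009. The share of all genes that were higher in all 4 lines by TPM was not computed. Without the NCI-H2009 library of day 1, the median log2 change was 0.92, with 15 of 15 above 0 and a smallest adjusted p of 0.176.

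At day 7 the values were smaller and less even across lines. edgeR called 0 of 15 against attached at an adjusted p under 0.05, where 0.103% of all genes were called, and 6 of 15 at an unadjusted p under 0.05, all higher, against 15.7%. DESeq2 called 0 of 15 against 7.19%, and limma 0 of 15 against 0.0747%. The median log2 change was 0.66 and the range 0.25 to 1.06. Without NCI-H2228 the median was 0.24, with 3 of 15 below 0, and without its attached or its day 7 library alone it was 0.38 or 0.39. By CPM, MT-CO1 and MT-ND6 were higher in 4 of 4 lines, 2 of 15 against 14.6% of all genes. By TPM 4 were, with MT-ND1 and MT-ND2 added, and the share of all genes by TPM was not computed. Between day 7 and day 1, edgeR called 0 of 15 against 0% of all genes, and at an unadjusted p under 0.05 it called MT-CO2 alone, which was lower, against 9.78%. DESeq2 called 0 of 15 against 1.25% and limma 0 of 15 against 0%. None of the 15 was lower in 4 of 4 lines, against 8.69% of all genes. The 3 comparisons share libraries and are not independent of each other.

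**Figure D2:**
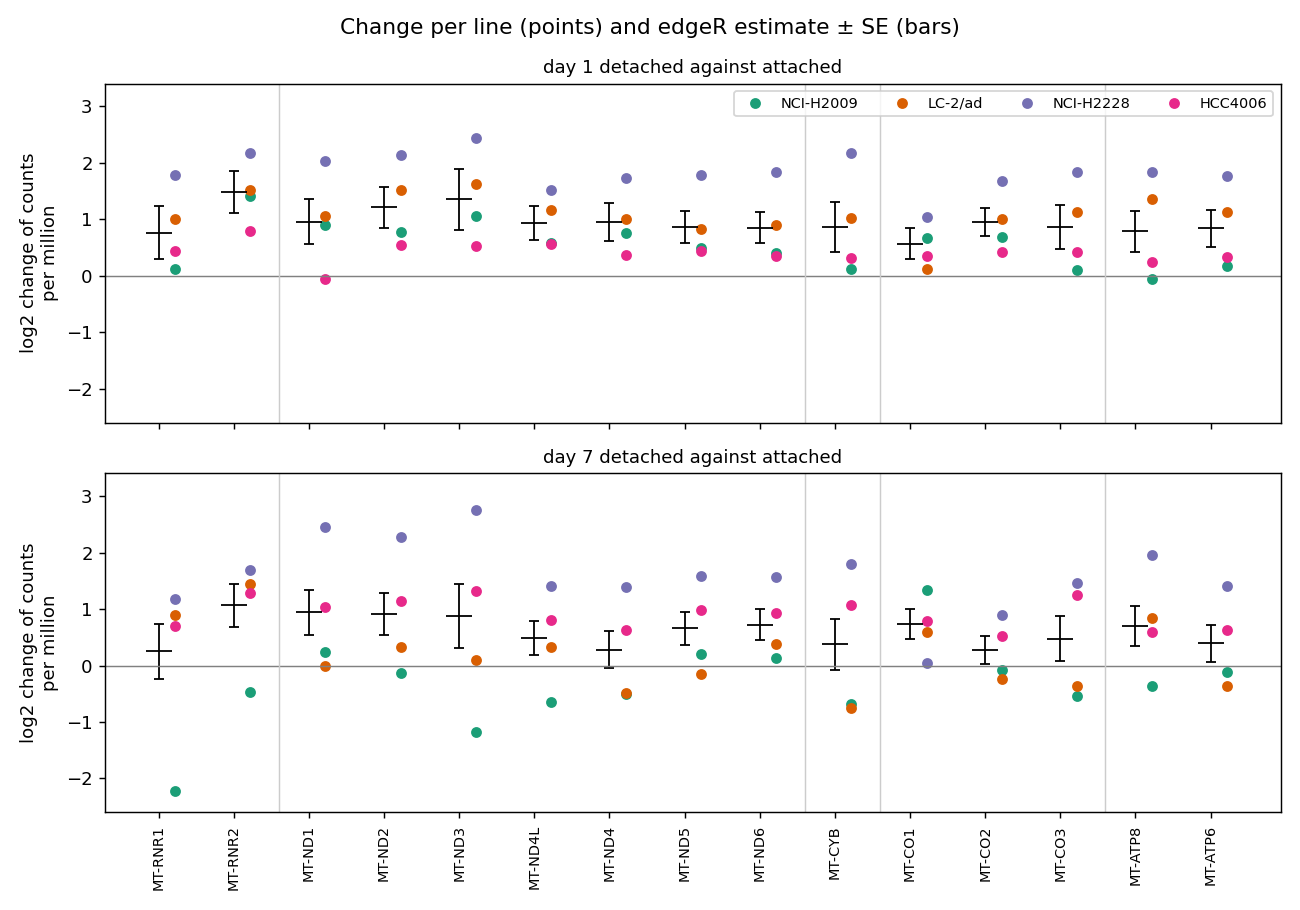
Log2 difference in CPM for each rRNA and protein gene at day 1 (top) and day 7 (bottom) against attached cells, with coloured points for the lines and black bars for the edgeR estimate ± SE over the 4 lines. At day 1, 2 of the 60 points lie below 0, MT-ND1 in HCC4006 and MT-ATP8 in NCI-H2009; at day 7 MT-RNR1 in NCI-H2009 is the lowest point at -2.23.

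MT-RNR2, the rRNA of the large mitochondrial ribosomal subunit, had the largest estimate of the group at day 1. It stood at 1850, 2410, 1481 and 2350 TPM in attached cells. At day 1 it stood at 3865, 6875, 6082 and 3833 TPM, so that the lowest day 1 library was above the highest attached one. Its log2 change was 1.48 ± 0.374 (SE, n = 4 lines), with differences of 1.41, 1.51, 2.18 and 0.79 in the lines and an adjusted p of 0.0910 in edgeR. DESeq2 gave it an adjusted p of 0.00231. Under the alternatives tried, the estimate stayed between 1.25 and 1.75, and the adjusted p ran from 0.00231 to 0.950. At day 7 it was at 1617, 6825, 4695 and 5369 TPM, where 3 lines had kept well above the attached range and NCI-H2009 lay within it. The log2 change at day 7 was 1.06 ± 0.376, with an adjusted p of 0.223. By CPM per kilobase of annotated length, a scale that sets short genes low, MT-RNR2 was the most abundant mitochondrial gene in 12 of 12 libraries. By TPM, which uses effective length, it was first in 8, and MT-CO2 and MT-CO3 were first in 2 each.

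MT-RNR1, the rRNA of the small subunit, lies before MT-RNR2 on the same precursor, but its level followed another order of lines. It stood at 1696, 516, 206 and 399 TPM in attached cells. NCI-H2009 was the highest of these and NCI-H2228 the lowest, 8.24 times apart. At day 1 it stood at 1437, 1026, 635 and 508 TPM, and at day 7 at 436, 1003, 450 and 603 TPM. NCI-H2009 thus went from the highest to the lowest line, while the other 3 were above their attached level at both times. The log2 change at day 1 was 0.76 ± 0.470 (adjusted p = 0.399 in edgeR) and at day 7 0.25 ± 0.486 (adjusted p = 0.848). The day 7 difference in NCI-H2009 was -2.23, against 0.90, 1.18 and 0.70 in the other lines. In the same library the genes for cytosolic ribosomal proteins held 0.441 times their attached share of TPM, and the part of that in this result was not tested.

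The ratio of the rRNAs, on the scale of TPM, moved the same way in all 4 lines. MT-RNR2 over MT-RNR1 was 1.09, 4.67, 7.20 and 5.89 in attached cells, 2.69, 6.70, 9.57 and 7.54 at day 1, and 3.71, 6.81, 10.4 and 8.91 at day 7. It was higher at day 1 than in attached cells and higher still at day 7 in every line. NCI-H2009 was the lowest line in all 3 states. Both RNAs are counted only as far as the poly(A)-primed library kit captured them, and how far that differed between libraries was not tested.

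**Figure D3:**
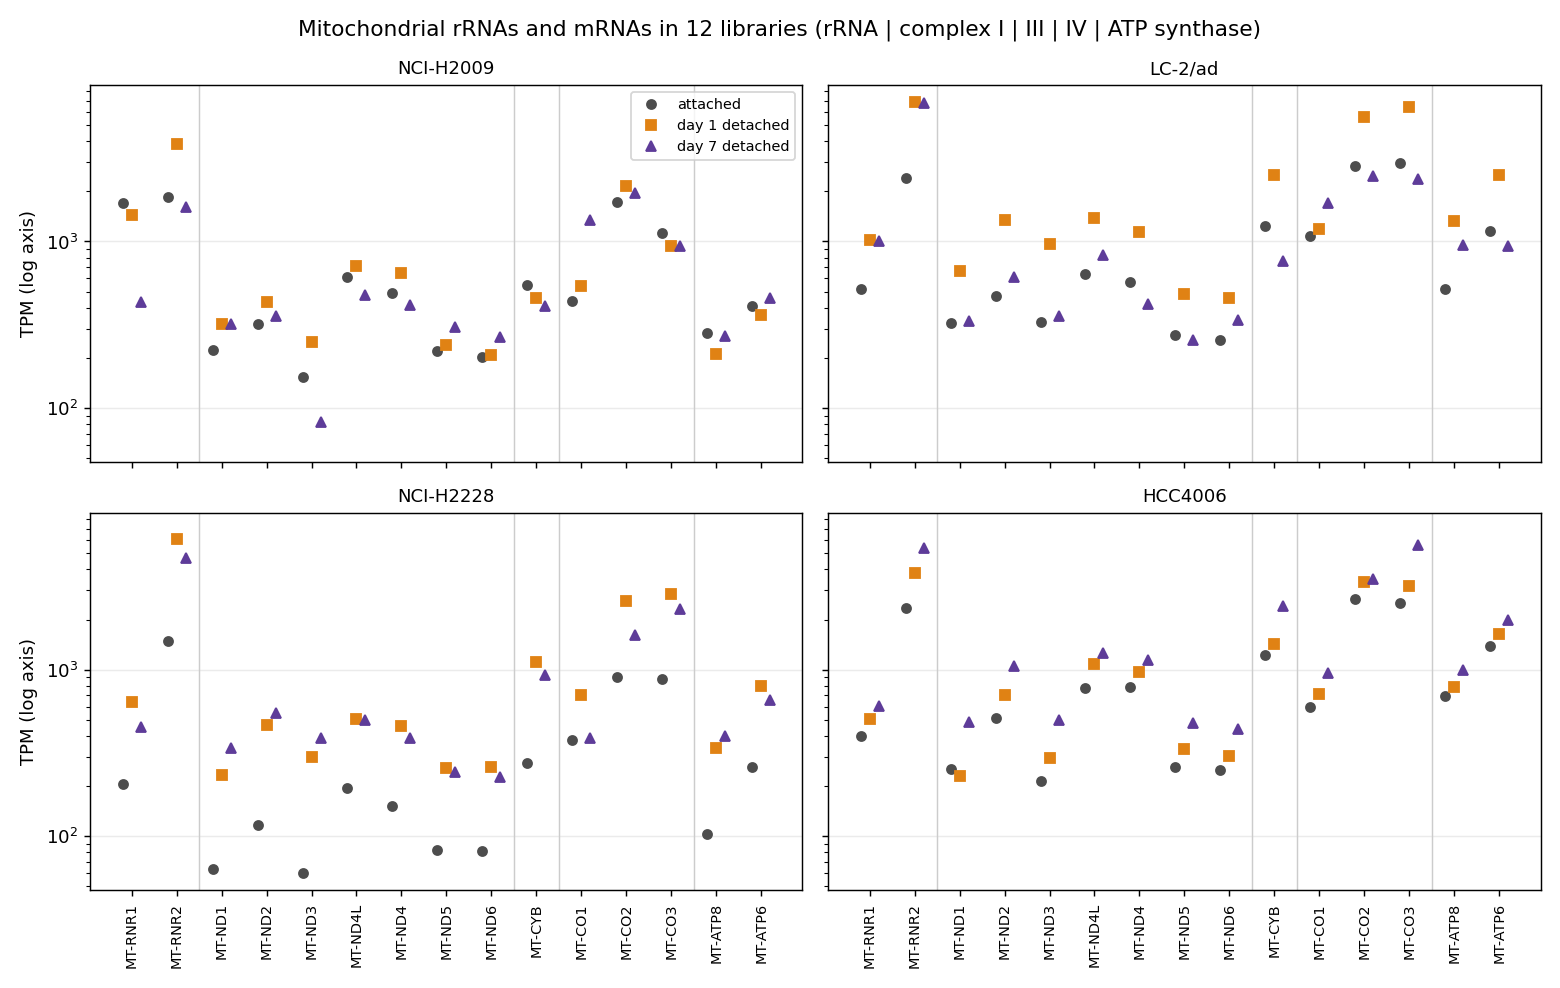
Level of the 13 protein and 2 rRNA genes in TPM (log axis) in each line, with grey circles for attached cells, orange squares for day 1 and purple triangles for day 7; each point is 1 library. In NCI-H2228 all attached points lie under those of day 1 and day 7, and in NCI-H2009 MT-CO1 stands at 1342 TPM at day 7 against 439 and 540 TPM before.

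Complex I, the NADH dehydrogenase that starts the electron transport chain, takes 7 core subunits from this genome. Their summed share of TPM was 1.26, 2.26, 3.30 and 1.28 times the attached share at day 1. At day 7 it was 1.00, 1.10, 3.50 and 1.76 times. MT-ND3, a small membrane subunit, had the largest estimate of the 7 genes at day 1 with a log2 change of 1.36 ± 0.540 (adjusted p = 0.206 in edgeR). It stood at 153, 327, 59.9 and 215 TPM in attached cells, at 249, 969, 297 and 295 TPM at day 1, and at 81.8, 357, 389 and 497 TPM at day 7. LC-2/ad was far above the other lines at day 1, and NCI-H2009 far below them at day 7. Only about 89.4 of its 346 bases could hold the start of a fragment, so its TPM rests on fewer counts than that of the long genes.

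MT-ND2, a proton-pumping membrane subunit, stood at 321, 472, 117 and 511 TPM in attached cells. At day 1 it was at 432, 1349, 467 and 700.2 TPM, and at day 7 at 355, 611, 548 and 1056 TPM. Each line was above its attached level at both times, though the ranges of the states overlapped. The log2 change was 1.21 ± 0.369 at day 1 (adjusted p = 0.130 in edgeR, 0.0199 in DESeq2) and 0.92 ± 0.373 at day 7 (adjusted p = 0.280 in edgeR). The protein gene before it on the genome, MT-ND1, which sits at the junction of the membrane and matrix arms, was at 223, 322, 63.7 and 254 TPM in attached cells. It was at 321, 663, 234 and 231 TPM at day 1 and at 318, 333, 337 and 484 TPM at day 7. HCC4006 was the only line under its attached level at day 1, and the line farthest above the rest at day 7. The log2 changes of MT-ND1 were 0.95 ± 0.396 and 0.94 ± 0.401, with adjusted p of 0.222 and 0.298 in edgeR.

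MT-ND4, another proton-pumping subunit, is read from 1 mRNA with the small subunit MT-ND4L. MT-ND4 stood at 492, 569, 153 and 791 TPM in attached cells, 648, 1144, 459 and 962 TPM at day 1, and 417, 422, 391 and 1140.3 TPM at day 7. All lines were above their attached level at day 1, and NCI-H2009 and LC-2/ad were below it at day 7. Its log2 change was 0.95 ± 0.331 at day 1 (adjusted p = 0.162 in edgeR) and 0.28 ± 0.334 at day 7 (adjusted p = 0.723). MT-ND4L had 195 to 774 TPM in attached cells, 505 to 1388 at day 1 and 476 to 1263 at day 7, with log2 changes of 0.93 ± 0.299 and 0.49 ± 0.301. The ratio of MT-ND4L to MT-ND4 was 0.979 to 1.95 in TPM, but 0.278 to 0.557 per kilobase of annotated length. The gap between these scales comes with the short length of MT-ND4L, of whose 297 bases about 65.0 counted as effective length in the deposited TPM.

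MT-CYB, cytochrome b, is the only subunit of complex III made from this genome. It stood at 546, 1236, 274 and 1226 TPM in attached cells, at 459, 2511, 1114 and 1435 TPM at day 1, and at 409, 764, 928 and 2409 TPM at day 7. NCI-H2228 and HCC4006 were above their attached level at both times. NCI-H2009 was below it in TPM at both times, and LC-2/ad went from 2.03 times its attached level at day 1 to 0.618 times at day 7. The log2 change was 0.86 ± 0.447 at day 1 (adjusted p = 0.316 in edgeR) and 0.38 ± 0.455 at day 7 (adjusted p = 0.729).

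Complex IV, cytochrome c oxidase, takes its 3 core subunits from this genome, and they supplied 47.5% to 61.0% of the TPM of the 13 protein genes in every library. MT-CO2, which holds a copper centre that takes electrons from cytochrome c, stood at 1737, 2823, 909 and 2647 TPM in attached cells. It stood at 2162, 5591, 2596 and 3366 TPM at day 1 and at 1964, 2476, 1614 and 3525 TPM at day 7. Every line was higher at day 1 than attached, and 3 of 4 were lower at day 7 than at day 1 in TPM. The log2 change was 0.95 ± 0.254 at day 1 (adjusted p = 0.0999 in edgeR, 0.00867 in DESeq2). Between day 7 and day 1 it was -0.68 ± 0.253 (unadjusted p = 0.0234, adjusted p = 0.487 in edgeR).

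MT-CO3, a subunit next to the catalytic ones, was at 1131, 2950, 885 and 2520 TPM in attached cells. It was at 945, 6411, 2855 and 3174 TPM at day 1 and at 938, 2380, 2327 and 5573 TPM at day 7. LC-2/ad was highest at day 1 and HCC4006 at day 7, while NCI-H2009 was below its attached level in TPM at both times. The log2 changes were 0.86 ± 0.396 and 0.48 ± 0.400 (adjusted p = 0.264 and 0.601 in edgeR). The ratio of MT-CO3 to MT-CO2 in TPM was 0.437 to 0.651 in NCI-H2009 and 0.943 to 1.58 in the other lines.

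MT-CO1, the subunit with the site of oxygen reduction, departed from the other genes of its line in 3 of the 4 lines and lay near their median in HCC4006. It stood at 439, 1082, 381 and 596 TPM in attached cells, and at 540, 1184, 706 and 713 TPM at day 1. At day 7 it stood at 1342, 1706, 386 and 962 TPM. NCI-H2009, LC-2/ad and HCC4006 had their highest MT-CO1 level at day 7, and NCI-H2228 was back near its attached level. The log2 change was 0.57 ± 0.268 at day 1, the smallest of the 15 genes (adjusted p = 0.276 in edgeR), and 0.73 ± 0.269 at day 7 (adjusted p = 0.238).

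Set against the median of the 15 genes in the same line, MT-CO1 stood out in both directions on the scale of log2 CPM. In NCI-H2009 its day 7 difference was 1.34, the highest of the 15, where the median was -0.36. In NCI-H2228 it was 0.05, the lowest of the 15, where the median was 1.56. In HCC4006 its departure from the median of the line was -0.14. Between day 7 and day 1 it was, by CPM, the only one of the 15 that was higher in NCI-H2009 and in LC-2/ad, by 0.67 and 0.47, and the lowest in NCI-H2228, at -0.99. By TPM, 5 of 15 were higher in NCI-H2009 (MT-CO1, MT-ATP8, MT-ATP6, MT-ND5 and MT-ND6) and MT-CO1 alone in LC-2/ad. The ratio of MT-CO1 to MT-CO2 in TPM was 0.253, 0.383, 0.419 and 0.225 in attached cells and 0.250, 0.212, 0.272 and 0.212 at day 1. At day 7 it was 0.684, 0.689, 0.239 and 0.273, so that NCI-H2009 and LC-2/ad lay far above the other lines. Each of these is 1 library, and the difference between lines was not tested.

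**Figure D4:**
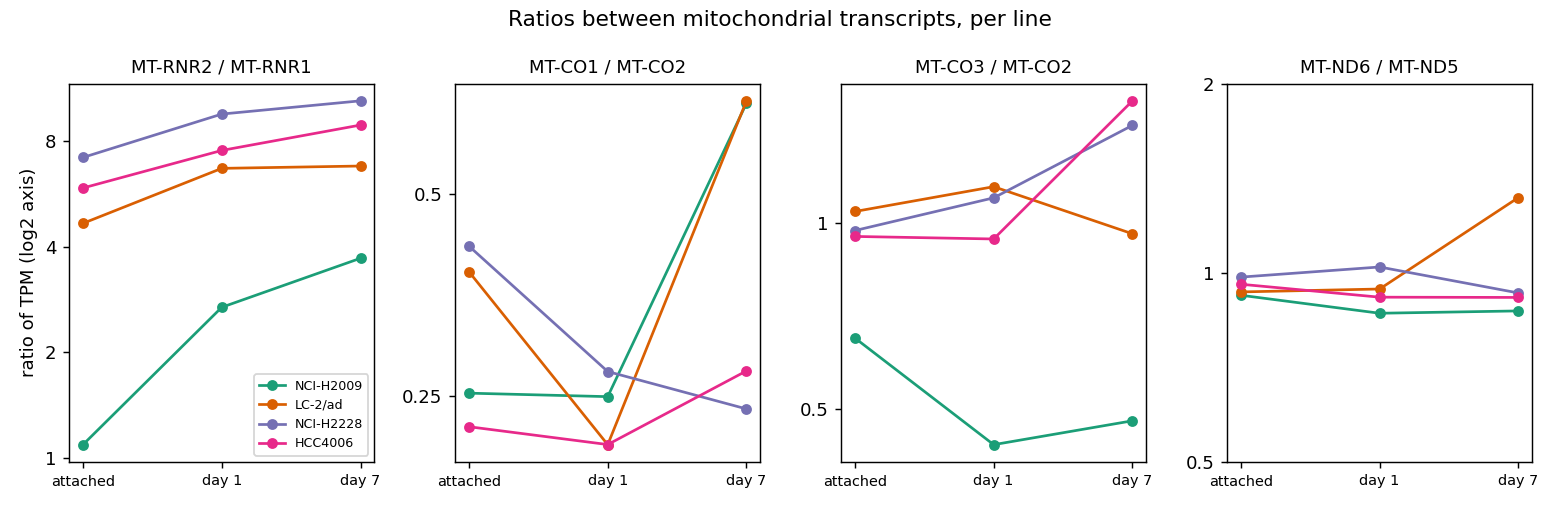
Ratio of TPM between pairs of mitochondrial transcripts (log2 axis) in the 3 states, with 1 coloured line per cell line and 1 library per point. MT-RNR2 over MT-RNR1 is higher at day 7 than attached in all lines, MT-CO1 over MT-CO2 stands at 0.684 and 0.689 at day 7 in NCI-H2009 and LC-2/ad, and MT-ND6 over MT-ND5 stays between 0.862 and 1.32.

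ATP synthase takes MT-ATP6, the channel subunit through which protons return, and the small MT-ATP8 from a shared mRNA. MT-ATP6 stood at 409, 1163, 260.2 and 1391 TPM in attached cells, at 360, 2505, 796 and 1647 TPM at day 1, and at 456, 935, 660.1 and 1998 TPM at day 7. NCI-H2228 and HCC4006 were above their attached level at both times. The log2 change was 0.84 ± 0.324 at day 1 (adjusted p = 0.195 in edgeR) and 0.39 ± 0.323 at day 7 (adjusted p = 0.592). MT-ATP8 had 103 to 699 TPM in attached cells, 212 to 1320.3 at day 1 and 272 to 990.1 at day 7, with log2 changes of 0.78 ± 0.360 and 0.70 ± 0.360. MT-ATP8 over MT-ATP6 was 0.397 to 1.02 in TPM and 0.104 to 0.258 per kilobase, since only about 28.0 of the 207 bases of MT-ATP8 counted as effective length. The overlap printed above covers 46 of these 207 bases, and reads that lie in it cannot be told apart.

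MT-ND6, a membrane subunit of complex I, is the only protein gene read from the light strand. It lies end to end with MT-ND5, its partner on the other strand, with no base between them. MT-ND6 stood at 202, 255, 81.0 and 249 TPM in attached cells, at 207, 456, 261 and 303 TPM at day 1, and at 267, 339, 226 and 439.9 TPM at day 7. It was higher than attached in every line at both times, with log2 changes of 0.85 ± 0.270 and 0.72 ± 0.269 (adjusted p = 0.139 and 0.240 in edgeR, 0.0381 and 0.116 in DESeq2).

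MT-ND5 stood at 220, 273, 82.3 and 259.8 TPM in attached cells, at 240.04, 484, 255 and 332 TPM at day 1, and at 307, 257, 243 and 482 TPM at day 7. LC-2/ad was under its attached level at day 7, the only exception among these differences in TPM. The log2 changes were 0.86 ± 0.291 and 0.66 ± 0.292 (adjusted p = 0.156 and 0.313 in edgeR). The ratio of MT-ND6 to MT-ND5 in TPM was 0.862 to 1.32 over the 12 libraries, with LC-2/ad at day 7 the highest and 11 libraries at 1.02 or below. Whether the counts use strand is not given in the sources used here. Without strand, RNA of MT-ND6 and RNA read across it from the other strand cannot be told apart. The levels and changes given for MT-ND6, and its likeness to MT-ND5, are therefore a description of the counts only.

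The tRNA genes were close to absent from these libraries. All 22 together had 14 to 109 estimated counts per library, 0.00625% to 0.0286% of the counts on chrM, and 4 to 16 of the 22 were at 0. A count of 0 allows up to 3 counts, and this covers counting error only. The 8 tRNA genes of the minus strand summed to 7 to 37 counts and the 14 of the plus strand to 7 to 91. A tRNA is short and has no poly(A) tail while intact, so these counts say little about tRNA levels. The summed TPM of the tRNA genes was 2.27, 2.05, 1.79 and 1.22 times the attached level at day 1, and 1.20, 0.901, 1.72 and 1.68 times at day 7. MT-TL1, singled out after its values were seen, lies directly after MT-RNR2 with no base between them. It had 1, 3, 1 and 3 counts in attached cells, 38, 22, 8 and 6 at day 1, and 10, 2, 9 and 17 at day 7. It was higher at day 1 than attached in 4 of 4 lines, and has no test because it did not pass the filter.

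Nuclear copies carried little of the signal but were not free of it. Of the 408 copies, 318 were at 0 in every library and 7 reached 3 TPM. The largest share was that of MTATP6P1, a copy of MT-ATP6 on GRCh38 at chr1:633696-634376, which held 11.9% to 14.5% of the TPM of the pair in every library. Copy and gene differ at 10 of 681 bases, 98.5% identity, and 3 of the 10 fall in the stretches below, shown because reads between such sites fit both. They are chrM:8642-8701 and chr1:633811-633870, both on the plus strand, with the differing bases in capitals.
MT-ATP6: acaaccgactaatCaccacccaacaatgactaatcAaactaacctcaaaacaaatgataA
MTATP6P1: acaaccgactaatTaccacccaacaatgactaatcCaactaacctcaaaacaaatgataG

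The other copies held smaller parts: MTND1P23 had 5.90% to 10.99% of the TPM of its pair with MT-ND1, and MTND2P28 0.613% to 1.05% of its pair with MT-ND2. By estimated counts, MTND1P23 held 0.996% to 1.95% of its pair. The 8 copies that passed the filter had a median log2 change of 0.84 at day 1 and 0.75 at day 7, close to the 0.86 and 0.66 of the mitochondrial genes. By line the summed copies did not always move with the share of the whole mitochondrial genome. The summed TPM share of the copies was 0.896, 2.23, 2.78 and 1.18 times the attached share at day 1 and 1.07, 0.802, 2.83 and 1.59 times at day 7. The mitochondrial share stood at 0.937, 1.30, 2.68 and 1.80 times at day 7. NCI-H2009 at both times and LC-2/ad at day 7 thus had the copies and the whole share on opposite sides of 1. These are unlike sets, since MTATP6P1 had the highest TPM of the copies. MT-ATP6 stood at 0.879, 2.15, 3.06 and 1.18 times its attached TPM at day 1. At day 7 it stood at 1.11, 0.804, 2.54 and 1.44 times, on the same side of 1 as the copies in every line at both times. Adding the counts of the copies to their genes left the number past the threshold at 0 in each comparison.

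Lists of nuclear genes that serve this genome had median log2 changes between -0.36 and 0.21 at day 1. They were followed in the same fit, and in edgeR 0 genes of any list had an adjusted p under 0.05 in any comparison. The counts of these lists at day 1 stand against 19.6% of all genes at an unadjusted p under 0.05 in edgeR and 11% in DESeq2. Of 14 genes for mitochondrial transcription, 1 was higher and 4 were lower at an unadjusted p under 0.05 at day 1, and DESeq2 called 2 lower. The median log2 change was -0.34, beside 0.0075 over all genes, and -0.15 without the NCI-H2009 library of day 1. TFAM, which packages mitochondrial DNA and opens its promoters, had a mean of 76.2 TPM attached and 47.4 TPM at day 1, with a log2 change of -0.69 ± 0.249 (adjusted p = 0.170 in edgeR). The difference was -1.74 in NCI-H2009 and -0.42, -0.22 and -0.43 in the other lines, and without that library the log2 change was -0.44 ± 0.188 (adjusted p = 0.297 in edgeR). NRF1, a transcription factor for respiratory genes, had a log2 change of -0.76 ± 0.190 and its coactivator PPRC1 one of -0.82 ± 0.186. Their adjusted p were 0.0893 and 0.0763 in edgeR and 0.00119 and 0.00288 in DESeq2. PPARGC1A, a coactivator of mitochondrial biogenesis, was higher by 1.42 ± 0.560 but stayed low, at means of 0.701 TPM attached and 1.34 TPM at day 1.

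Of 19 genes for RNA processing, modification and polyadenylation, 18 had a log2 change below 0 at day 1, with a median of -0.36. Without the NCI-H2009 library of day 1, 18 were below 0 with a median of -0.27. At an unadjusted p under 0.05 edgeR called 4 of them, all lower, a share near the 19.6% of all genes, and DESeq2 called 3, against 11%. GTPBP3, which modifies mitochondrial tRNAs, was at a mean of 13.7 TPM attached and 5.19 TPM at day 1, with differences of -1.03, -1.42, -0.88 and -1.09 in the lines and an adjusted p of 0.0555 in edgeR. PUS1, a pseudouridine synthase, had a log2 change of -1.23 ± 0.296 (adjusted p = 0.0834), and ELAC2, which cuts the 3′ ends of tRNAs from the precursor, one of -0.47 ± 0.202 (adjusted p = 0.234). At day 7, 16 of 19 were below 0 and the median was -0.22. TRMU, another tRNA-modifying enzyme, then had -0.69 ± 0.157 (adjusted p = 0.120 in edgeR, 0.00067 in DESeq2).

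Of 15 genes for RNA stability and decay, 13 were below 0 at day 1 with a median of -0.27, and edgeR called 2 at an unadjusted p under 0.05, both lower, a share under the 19.6% of all genes, and DESeq2 called 1, against 11%. PNPT1, the exonuclease that degrades mitochondrial RNA, had a mean of 35.8 TPM attached and 15.0 TPM at day 1, a log2 change of -0.97 ± 0.252 (adjusted p = 0.0951 in edgeR, 0.00997 in DESeq2). The 11 translation factors had a median of -0.29, with 2 lower at an unadjusted p under 0.05 and 1 in DESeq2, shares near those of all genes. TACO1, the activator of MT-CO1 translation, had a log2 change of -0.73 ± 0.181 (adjusted p = 0.0868). The 14 genes for maintenance of mitochondrial DNA had a median of -0.083, with 3 lower and 2 in DESeq2, again near the shares of all genes, among them the helicase TWNK at -0.77 ± 0.251 (adjusted p = 0.148). NCI-H2009 had the lowest median of all lines in the lists for transcription, processing, stability and translation, at -0.81, -0.92, -0.42 and -0.48. Its day 1 library is the one with low MALAT1. Without it the medians for stability, translation and maintenance were -0.25, -0.19 and -0.12.

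Nuclear subunits of the same complexes differed between the lines. Their median log2 change at day 1 was 0.13 over 40 nuclear genes of complex I, 0.11 over 9 of complex III, 0.21 over 11 of complex IV and -0.072 over 17 of ATP synthase. Complex II, which has no mitochondrial gene, had 0.21 over 4 genes. The 78 mitochondrial ribosomal protein genes, partners of the rRNAs, had -0.10, with 1 higher and 6 lower at an unadjusted p under 0.05 and 1 lower in DESeq2, both shares under the 19.6% and 11% of all genes. At that p, 4 complex I genes were higher and 1 lower, 1 complex IV gene was higher, and 0 of the other complexes were called, with 0 in DESeq2. The 1 lower was NDUFC2-KCTD14, a joint symbol that the complex I list took in because it was drawn up by symbol. That list also took in NDUFA4, which is counted in the complex IV list as well. By line, the nuclear medians were 0.38, -0.0082, 0.037 and 0.22 for complex I, 0.29, -0.10, -0.057 and 0.28 for complex III, and 0.62, -0.0064, -0.044 and 0.40 for complex IV. The mitochondrial medians of 0.57, 1.05, 1.83 and 0.41 were thus far from the nuclear ones in LC-2/ad and NCI-H2228, and of a similar size to complex IV in NCI-H2009 and HCC4006. Without the NCI-H2009 library of day 1, the medians were -0.023 for complex I, -0.00075 for complex III, 0.0074 for complex IV, -0.18 for ATP synthase, 0.0082 for complex II and -0.15 for the mitochondrial ribosomal proteins. COX5B, a nuclear subunit of complex IV, had the smallest p of its list, with a log2 change of 0.55 ± 0.232 (adjusted p = 0.230 in edgeR), and NDUFB4 that of complex I with 0.57 ± 0.201 (adjusted p = 0.167). Without that library they had 0.25 and 0.34.

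At day 7 the medians were -0.11, -0.13, -0.20 and -0.28 for nuclear genes of complexes I, III and IV and ATP synthase, and -0.22 for the mitochondrial ribosomal proteins, of which 70 of 78 were below 0. At an unadjusted p under 0.05, 2 ATP synthase genes and 3 ribosomal protein genes were lower, against 15.7% of all genes, with 0 called by DESeq2, against 7.19%. ATP5MC3, which encodes the rotating ring subunit of ATP synthase, had a log2 change of -0.55 ± 0.195 (adjusted p = 0.220). NCI-H2009 was the lowest line in each of these 5 lists, from -0.51 to -0.85. HCC4006 was the highest in the lists of the 4 complexes, from 0.065 to 0.41. The cytosolic ribosomal protein genes, which do not serve this genome, had a lower day 7 median of -0.44, with 77 of 78 below 0. By line they had -1.45, -0.65, -0.017 and 0.18, so NCI-H2009 was lowest and HCC4006 highest there too. The median over all genes tested was 0.033. The difference between mitochondrial and nuclear genes was not tested.

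**Figure D5:**
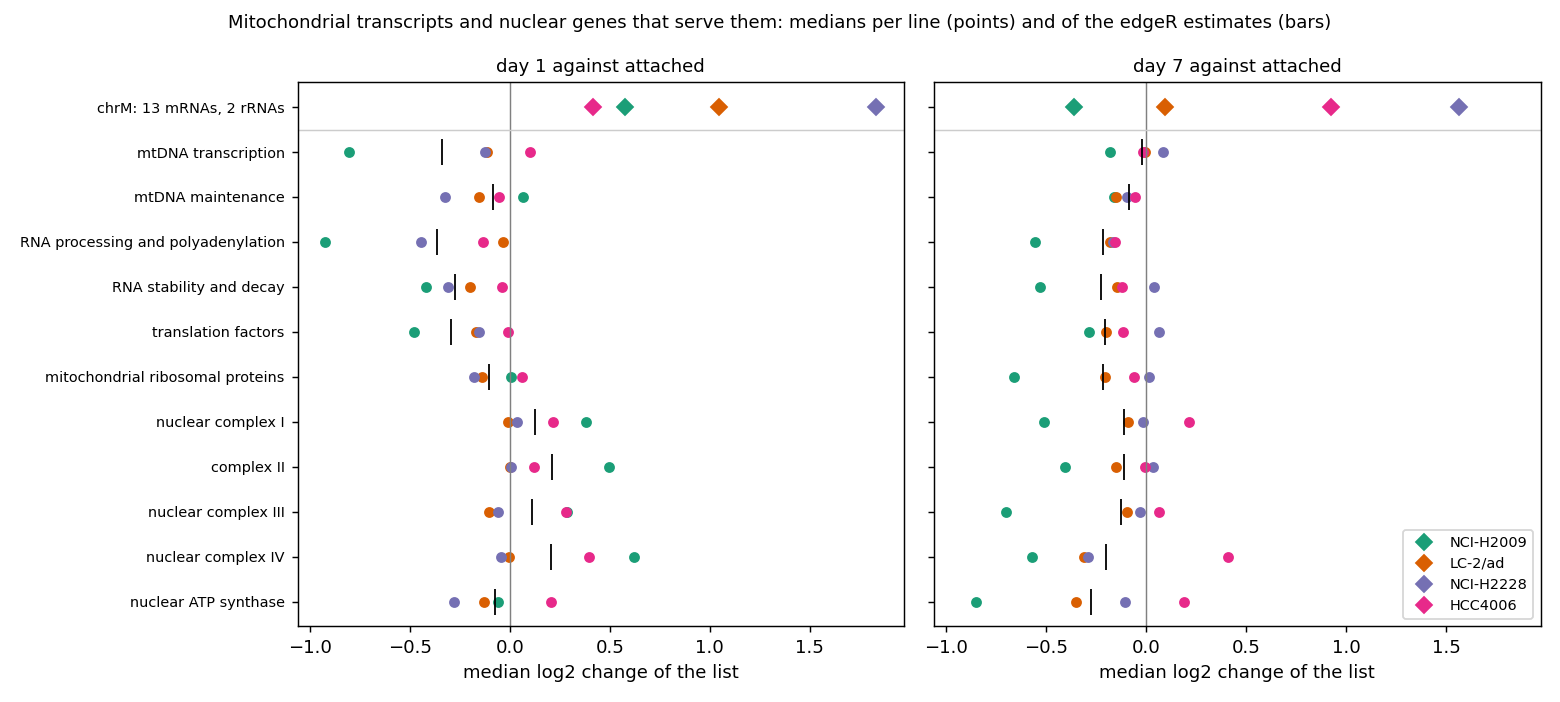
Median log2 change at day 1 (left) and day 7 (right) against attached cells for the 15 mitochondrial genes (diamonds, 1 per line) and for lists of nuclear genes (points, 1 per line), with black bars for the median of the edgeR estimates of each nuclear list. At day 1 the diamonds lie between 0.41 and 1.83 and all nuclear points between -0.92 and 0.62.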

How the data were processed

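Per the labels' protocols, RNeasy columns gave total RNA and the SMART-Seq v4 PLUS kit, which primes on poly(A) tails, gave the libraries. The genome build is GRCh38, per the submitters' processing notes. Not given in the sources used here: the aligner, the tool that quantified, the release of the annotation, and whether strand was used. The authors deposited TPM and an estimated count for each gene and library, per the file headers, of which 31.5% of the counts above 0 are not whole. The TPM match effective lengths, annotated length less most of a fragment of 305 to 330.0 bases, as computed here from long genes.

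The rounded counts went into edgeR 4.0.16, run in R 4.3.3 (filterByExpr by state, TMM factors, robust quasi-likelihood fit of state and cell line to the 12 libraries, 6 residual degrees of freedom). Adjusted p is Benjamini-Hochberg over the 17395 genes tested, with a threshold of 0.05. Each SE is derived from the F statistic of the test. Differences of single lines are in log2 CPM with a prior count of 2. DESeq2 1.42.0 and limma 3.58.1 on log2(TPM + 1) were alternatives, with other scalings, filters, blocks and libraries left out. The cell line pairs the libraries: libraries of the same line deviated together from their state means with correlations of 0.715 to 0.818 in 12 pairs. The fit was tested on simulated counts.

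The rule for named genes takes all 13 protein and 2 rRNA genes, tRNA genes only if they pass the filter, and from each nuclear list the 4 genes with the smallest edgeR p, of which some are described. Members and lists were chosen with earlier results of these data known. FASTKD4 is listed also as TBRG4 and was counted once.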

Additional observations from a re-analysis of the deposited data

Results flagged for a closer look

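In 96 groups of 4 libraries or 4 line differences, 5 values lay far from the other 3 by Dixon's 95% critical value, about the 1 in 20 that chance gives. MT-ND1 stood at 484 TPM in HCC4006 at day 7, where the other lines had 318 to 337. MT-ND4 stood at 1140.3 TPM in the same library, where the others had 391 to 422. MT-ND3 was at 969 TPM in LC-2/ad at day 1, beside 249 to 297 in the others. The day 7 log2 difference of MT-RNR1 was -2.23 in NCI-H2009 and 0.70 to 1.18 in the others. Between day 7 and day 1, the difference of MT-CO1 was -0.99 in NCI-H2228 and 0.44 to 0.67 in the others.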

How the results depend on the processing

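The number of members past the threshold was 0 of 15 under every alternative in each comparison, except with DESeq2 at day 1, which called 6. Without the cell line as replicate block it was 0 as well, with a smallest adjusted p of 0.950 at day 1, and MT-RNR1 at day 7 against attached turned to -0.16. Over the 26 alternatives the median log2 change of the 15 genes ran from 0.60 to 1.15 at day 1, from 0.24 to 0.85 at day 7 and from -0.69 to -0.060 between day 7 and day 1. The lowest value at day 1 and at day 7 came without NCI-H2228. The share of estimated counts gave a mean of 0.660% in attached cells in place of 1.15% of TPM. With limma on TPM, 3 differences between day 7 and day 1 turned above 0: MT-ND1 at 0.14, MT-ATP8 at 0.12 and MT-ND6 at 0.067. The causes were not tested. Leaving out a library or a line gave both signs for MT-RNR1 (-0.043 to 0.90), MT-ND4 (-0.063 to 0.54) and MT-CYB (-0.033 to 0.77) at day 7 against attached. Between day 7 and day 1 it did so for MT-ND1 (-0.40 to 0.30), MT-CO1 (-0.045 to 0.54), MT-ND2 (-0.64 to 0.0022), MT-ATP8 (-0.34 to 0.10), MT-ND5 (-0.45 to 0.030) and MT-ND6 (-0.35 to 0.074). The nuclear lists without the NCI-H2009 library of day 1 were chosen after seeing the data; the medians of complexes I and III and of cytosolic ribosomal proteins then turned below 0, to -0.023, -0.00075 and -0.11. Counts were ample for the 15 genes and few for the tRNA genes.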
